A study of Mus musculus with 18 samples.

Results

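The 39 interferon-stimulated genes described here are a list of mouse genes that type I interferon is known to induce, or that carry its signal. The list is one of gene symbols and uses no threshold on the values, but it was drawn up with earlier results of these arrays known. Of the 39 genes, 37 had a probe set that named a single gene on the Affymetrix Mouse430_2 array, among 18194 such genes. Isg15 was not read because its probe set names several genes, and Ifi44 has no probe set in the annotation used here. Of these 37 genes, 34 were bright enough to be tested, among 10916 genes tested in all. Mx1, Mx2 and Oas3 fell below the brightness limit.

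The study measured total RNA of mouse TKO cells, a line whose labels describe it as having dysfunctional telomeres, on 18 arrays in 6 groups of 3. Cells expressing p53ER, a fusion of p53 to the estrogen receptor that 4-hydroxytamoxifen (4-OHT) switches on, were collected after 4 h with 100 nM 4-OHT, after 4 h with vehicle, and untreated at 0 h. Uninfected TKO cells, without the fusion, were collected in the same 3 conditions. The 4 h time was chosen by the study to list genes that p53 may act on directly. All cells shared the same line and medium. No group was infected with a vector lacking the fusion, as far as the labels say, so p53ER and infection itself cannot be told apart between the cell types. Each group holds replicates numbered 1 to 3, and the labels do not say whether these are separate cultures, so p-values measure only the spread between these arrays.

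Type I interferon binds a receptor whose kinases, Jak1 and Tyk2, activate Stat2. With Irf9 it is part of a complex that binds the interferon-stimulated response element in the promoters of its target genes. The targets encode sensors of viral RNA, enzymes and binding proteins that block viral replication, membrane proteins that stop virus entry or release, and regulators that strengthen or end the signal. Many of them are also expressed at a low level in cells that have met no virus, through small amounts of interferon made by the cells themselves.

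RefSeq promoters (build GRCm38.p6, 250 bases before to 50 after each start) were given for 31 of the 39 genes. The core of the interferon-stimulated response element, searched as TTTC, any 2 bases and TTTC again (GAAA spaced in the same way on the other strand), was present in 16 of these 31 genes, against 3.99% of 27025 genes with a promoter. The gamma-activated site, TTCNNNGAA, reads the same on both strands and was present in 10 of 31 genes, against 9.55% of all genes. Matches of the 2 motifs may overlap. Dhx58, Mx1, Mx2, Oas2, Parp9, Parp14, Rtp4 and Usp18 had no entry. The 6 stretches of 60 bases below are from genes that were lower in replicate 2 of the uninfected cells, the main difference among these arrays for this gene list. They are written 5′ to 3′ on the strand of the gene, and capitals mark the element's core.
Bst2: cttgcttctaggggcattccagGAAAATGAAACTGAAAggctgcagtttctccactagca
Gbp2: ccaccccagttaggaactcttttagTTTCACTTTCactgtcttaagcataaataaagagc
Gbp3: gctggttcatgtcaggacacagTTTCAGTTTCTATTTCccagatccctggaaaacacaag
Ifit1: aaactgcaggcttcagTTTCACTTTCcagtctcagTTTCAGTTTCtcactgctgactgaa
Ifit3: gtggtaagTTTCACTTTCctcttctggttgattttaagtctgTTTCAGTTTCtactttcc
Oas1a: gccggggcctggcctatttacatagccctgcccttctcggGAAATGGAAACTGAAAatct
The Bst2 stretch lies at chr8:71537565-71537624 on the minus strand and the Oas1a stretch at chr5:120907526-120907585 on the minus strand. Gbp2 (chr3:142620579-142620638) and Gbp3 (chr3:142559977-142560036) are on the plus strand. Ifit1 (chr19:34640769-34640828) and Ifit3 (chr19:34583365-34583424) are also on the plus strand, and each holds 2 separate copies of the core. All 6 stretches lie before the annotated start of transcription.

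Signals are given below as log2 of the MAS5 signal plus a small offset, after each array was scaled to a common mean brightness. Before scaling, that mean ran from 47.5 to 148.2 over the arrays. The first principal component over all tested genes (23.9% of the variance) set 3 arrays apart. They were the p53ER arrays of replicate 1 with vehicle and of replicate 3 at 0 h, and the uninfected array of replicate 2 at 0 h. The second (21.8%) set replicate 3 apart from replicates 1 and 2. Mdm2, a direct p53 target that checks the fusion, was 10.21, 10.09 and 11.26 in p53ER cells with 4-OHT, against 6.77, 7.30 and 8.73 with vehicle, a log2 change of 2.92 (limma adjusted p = 0.0329). In uninfected cells its log2 change was -0.27 (adjusted p = 1.00). Cdkn1a, the other gene read as a check of the fusion, changed by 2.19 in p53ER cells (SE 0.49, limma adjusted p = 0.438). It changed by -0.38 in uninfected cells. A change as large as that of Cdkn1a thus did not pass here. Of the cell type markers, 8 of 8 mesenchymal, 3 of 6 epithelial, 5 of 9 blood or immune and 1 of 4 endothelial ones were above the brightness limit. Only the mesenchymal markers were bright, with a summed signal of 39405 to 64678 over the arrays. The sums were 156 to 271 for epithelial, 255 to 402 for blood or immune and 52.4 to 140 for endothelial markers.

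Switching on p53ER for 4 h left no interferon-stimulated gene past the test. With 4-OHT against vehicle in p53ER cells, 0 of 34 genes passed an adjusted p of 0.05 in limma, against 0.0183% of all genes tested, and 1 passed at an unadjusted p under 0.05, beside 3.22% of all genes. These are values of the fit without replicate number. With the number as a block, none of the 34 passed the adjusted threshold either. The log2 changes ran from -0.56 for Trim21, a ubiquitin ligase that binds antibody-coated virus, to 0.62 for Parp14, an ADP-ribosyltransferase. Their median was -0.04, beside -0.01 over all tested genes, and 21 of 34 were negative. That median turned to 0.11 without the vehicle replicate 2 array and to 0.06 without the 4-OHT replicate 3 array. For a change of either sign, the share of responding cells and the RNA per cell cannot be told apart in these bulk samples.

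Trim21 was 5.23, 5.86 and 5.14 in p53ER cells with 4-OHT, against 6.06, 5.95 and 5.91 with vehicle. The groups did not overlap, and the limma adjusted p was 0.998 (SE 0.24, unadjusted p = 0.0313). Parp14 was 6.16, 5.99 and 5.88 with 4-OHT, against 4.88, 5.76 and 5.51 with vehicle. Herc6, which in mice attaches Isg15 to proteins, was 6.60, 6.27 and 6.44 with 4-OHT, against 6.05, 6.02 and 5.56 with vehicle. For Parp14 (log2 change 0.62, SE 0.36) and Herc6 (0.56, SE 0.28) every 4-OHT array was above every vehicle array, as for 3.39% of all genes. Trim25, a ubiquitin ligase that activates the RNA sensor RIG-I, was below vehicle in every array along with Trim21, as were 3.98% of all genes. These 4 were the only tested genes of the list whose groups did not overlap.

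In p53ER cells Irf9, the DNA-binding partner of Stat2, changed by -0.36 (SE 0.29), and Irf7, the factor that amplifies interferon production, by 0.24. In uninfected cells, 4-OHT against vehicle also gave 0 of 34 genes past the test (limma, 0% of all genes), none at an unadjusted p under 0.05, and a median of -0.02. The 2 largest changes there were those of Oas2, a 2'-5' oligoadenylate synthetase (0.61, SE 0.51), and Dhx58 (0.40, SE 0.41). Oas2 was 5.37, 4.46 and 5.23 in uninfected cells with 4-OHT, against 5.34, 3.80 and 4.09 with vehicle, and the groups overlapped. The difference of the 4-OHT effect between p53ER and uninfected cells passed the test for 0 of 34 genes (0% of all genes) and at an unadjusted p for none, with a median of -0.07. The plot of 4-OHT against vehicle shows both cell types together.

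**Figure D1:**
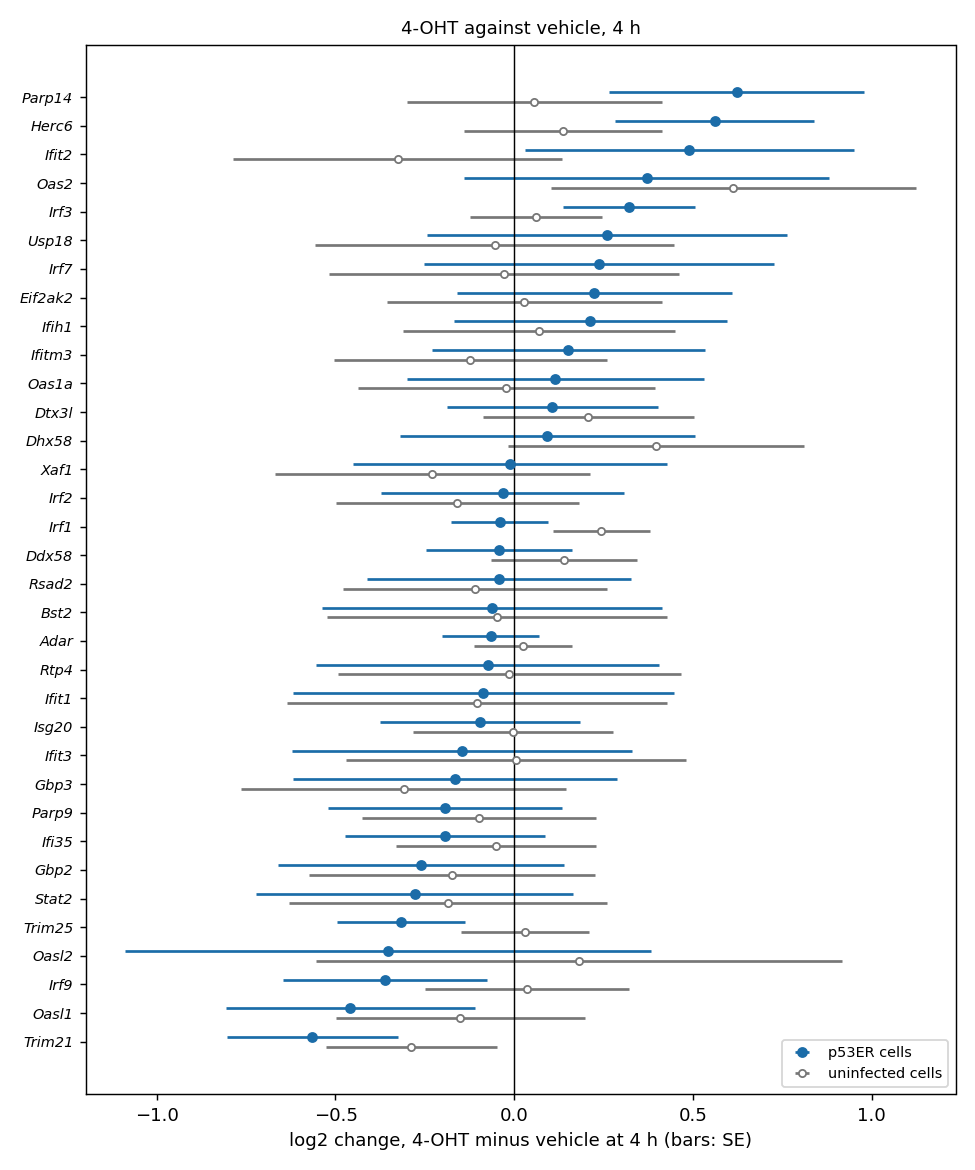
Log2 change of each of the 34 tested interferon-stimulated genes with 4-OHT against vehicle at 4 h (x axis), in p53ER cells (filled blue) and uninfected cells (open grey). Points are means of 3 arrays against 3 and bars are standard errors of the limma model. The p53ER changes run from -0.56 for Trim21 to 0.62 for Parp14, and no gene passed the adjusted threshold.

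The largest differences in the list lay between replicate numbers, and they were not the same in the 2 cell types. In uninfected cells, replicate 2 had the lowest level of most of these genes in all 3 conditions. With 4-OHT, 28 of 34 genes were below both other replicates in replicate 2, against 27.9% of all tested genes. With vehicle 29 of 34 were (27.9% of all genes), and at 0 h 28 of 34 (30% of all genes). The median of replicate 2 minus the mean of replicates 1 and 3 was -0.70, -0.87 and -0.77 in these conditions. The heatmap of all 37 genes shows the 3 blue columns.

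**Figure D2:**
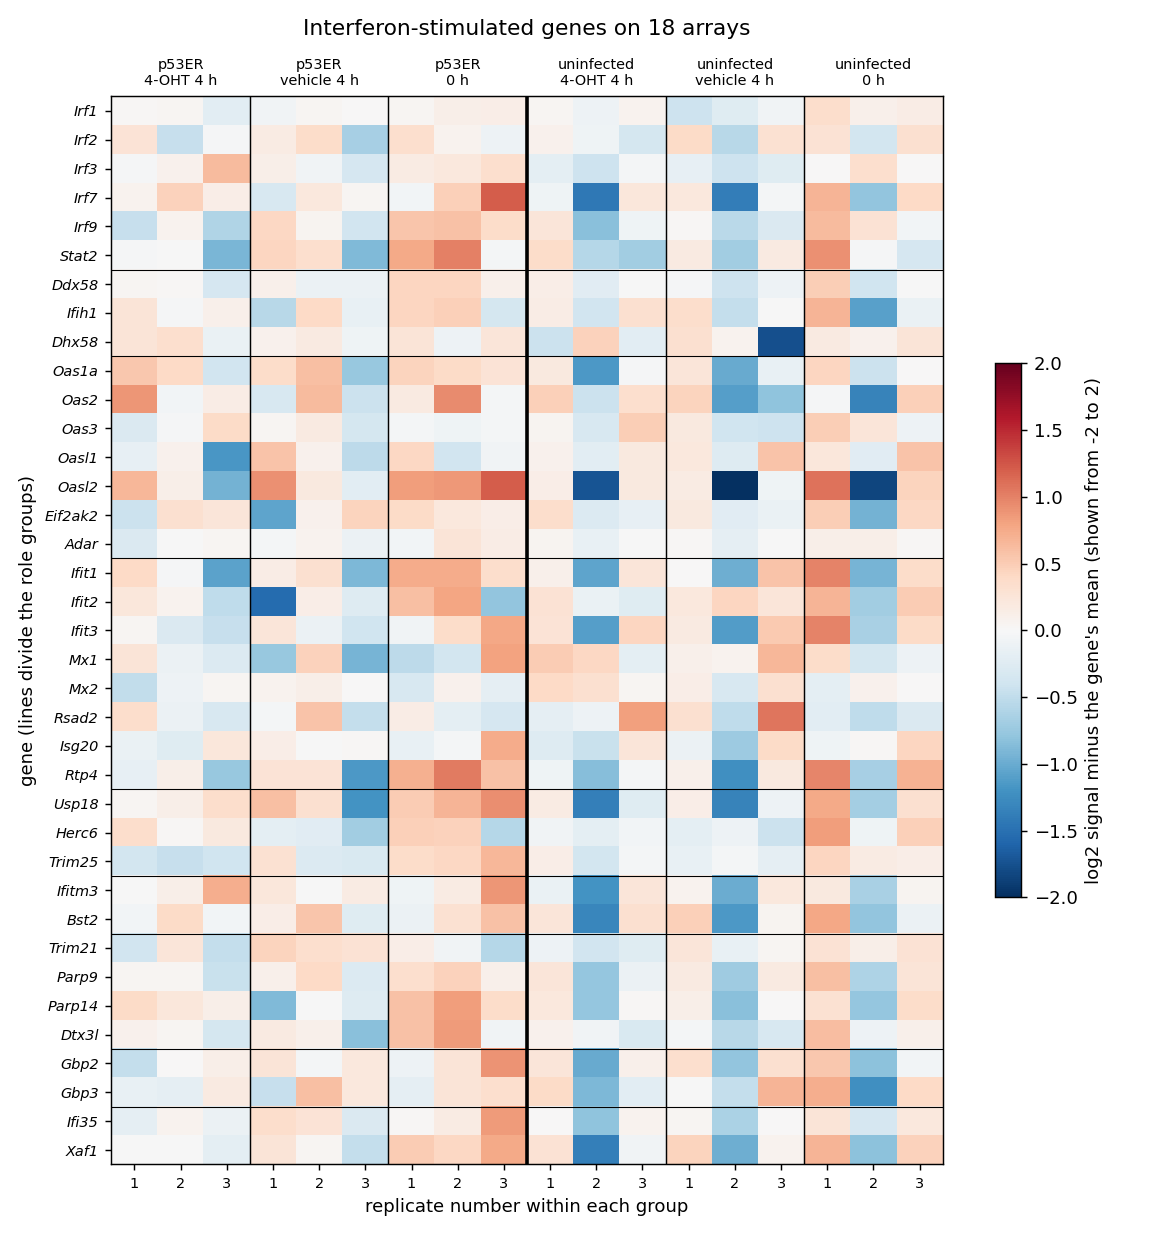
Heatmap of the 37 interferon-stimulated genes read (rows, grouped by role) on the 18 arrays (columns, replicates 1 to 3 within each group). Colour is the log2 signal minus the gene's mean over 18 arrays, blue below and red above. The replicate 2 columns of the 3 uninfected groups are mostly blue. The median of the tested genes was 6.36, 6.38 and 6.62 on those arrays and 6.80 to 7.63 on the other 15.

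These comparisons by replicate number within a cell type were added after the values had been seen, so their p-values describe these arrays and are no independent test. A model with replicate number within each cell type was fitted, and an F test over the number, which singles out no replicate, passed in uninfected cells for 18 of 34 genes, against 12.7% of all genes. In p53ER cells it passed for 5 of 34 genes, against 12.3% of all genes. The effect of the number differed between cell types for 9 of 34 genes, against 1.6% of all genes: Irf7, Oas1a, Oasl2, Ifit1, Rtp4, Bst2, Parp9, Gbp2 and Xaf1.

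Set against the mean of replicates 1 and 3, uninfected replicate 2 was lower for 13 of 34 genes and higher for none. Of all genes tested, 1.15% passed in either direction and 0.669% were lower. The median log2 difference of the 34 genes was -0.68, beside 0.01 over all genes, and 33 of 34 differences were negative, beside 48.3% of all genes. At an unadjusted p under 0.05, 24 of the 34 were lower, beside 5.16% of all genes. All 3 replicate 2 arrays lay below all 6 others for 19 of 34 genes, against 1.81% of all genes.

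Among the transcription factors, Irf7 was the one of 6 that fell. In uninfected replicate 2 it was 6.10 with 4-OHT, 6.16 with vehicle and 6.75 at 0 h, against 7.45, 7.75 and 8.22 in replicate 1 and 7.77, 7.49 and 7.93 in replicate 3. Its log2 difference was -1.43 (SE 0.18, adjusted p = 0.000997), a level 2.70-fold lower. Irf9 (-0.44) and Stat2 (-0.53), the partners of the interferon complex, did not pass the adjusted threshold (adjusted p = 0.354 and 0.356). Irf3, which starts interferon transcription, was 7.63, 7.62 and 8.38 in replicate 2, against 7.85, 7.88 and 8.04 in replicate 1 and 8.0, 7.80 and 8.05 in replicate 3, and differed by -0.06. Irf1 differed by -0.10 and Irf2, its repressing relative, by -0.51.

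Of the RNA sensors none passed. Ddx58 (RIG-I) differed by -0.43 (SE 0.11, adjusted p = 0.104) and Ifih1 (MDA5) by -0.87 (SE 0.24, adjusted p = 0.128), both with every replicate 2 array below the others. Ddx58 was 7.86, 7.68 and 7.70 in replicate 2, against 8.22, 8.07 and 8.58 in replicate 1 and 8.09, 7.99 and 8.09 in replicate 3. Dhx58 (LGP2), which tunes those sensors, was the one gene of the list with a positive difference, 0.48 (SE 0.35). It was 3.38 on the uninfected vehicle replicate 3 array and between 4.70 and 5.59 on the other 17.

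Of the 6 effectors that act on double-stranded RNA, Oasl2 and Oas1a fell. Oasl2, a 2'-5' oligoadenylate synthetase family member, had the largest difference of the list. In uninfected replicate 2 it was 4.39 with 4-OHT, 4.09 with vehicle and 4.28 at 0 h, against 6.25, 6.28 and 7.19 in replicate 1 and 6.31, 6.03 and 6.56 in replicate 3. The log2 difference was -2.18 (SE 0.27, adjusted p = 0.000997), 4.55-fold lower, and the lowest of the 6 other arrays stood 1.64 above the highest of the 3. Oas1a, whose product activates RNase L, was 6.99, 7.13 and 7.71 in replicate 2, against 8.33, 8.38 and 8.57 in replicate 1 and 8.12, 7.99 and 8.15 in replicate 3 (log2 difference -0.98, adjusted p = 0.00880). Its call was lost without the 4-OHT (-0.85) or the vehicle array (-0.94) of replicate 2. Eif2ak2 (PKR), the kinase that stops translation, differed by -0.67 (adjusted p = 0.316), and Adar, an RNA editing enzyme, by -0.09.

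Ifit1, Ifit3 and Rtp4 fell among the 6 tested blockers of translation and replication. Ifit1, which binds viral RNA caps, was 6.54, 6.62 and 6.67 in replicate 2 with 4-OHT, with vehicle and at 0 h, against 7.70, 7.60 and 8.58 in replicate 1 and 7.84, 8.17 and 7.96 in replicate 3. Its log2 difference was -1.37 (SE 0.20, adjusted p = 0.00231). Ifit3, a partner of Ifit1, was 6.40, 6.38 and 6.84, against 7.77, 7.68 and 8.48 in replicate 1 and 7.93, 8.02 and 7.88 in replicate 3 (log2 difference -1.42, adjusted p = 0.00257). Rtp4 was 7.49, 7.11 and 7.67, against 8.25, 8.44 and 9.31 in replicate 1 and 8.30, 8.53 and 9.03 in replicate 3 (log2 difference -1.22, adjusted p = 0.00274, or -1.14 and 0.0524 without the vehicle array of replicate 2). Ifit2 (-0.41), the antiviral enzyme Rsad2 (-0.63) and the exonuclease Isg20 (-0.48) did not pass.

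Both membrane restriction factors fell. Bst2 (tetherin), which holds budding virus at the cell surface, was 7.91, 8.07 and 8.43 in uninfected replicate 2, against 9.45, 9.69 and 9.99 in replicate 1 and 9.53, 9.27 and 9.09 in replicate 3. Its log2 difference was -1.36 (SE 0.18, adjusted p = 0.00174), 2.57-fold lower. Ifitm3, which blocks virus entry from endosomes, was 10.42, 10.62 and 10.96, against 11.48, 11.68 and 11.81 in replicate 1 and 11.85, 11.82 and 11.67 in replicate 3 (log2 difference -1.05, adjusted p = 0.00174). None of the 3 replicate 2 arrays overlapped the other 6 for either gene.

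Of the ubiquitin and ADP-ribose modifiers, Parp9 fell by 0.93 on the log2 scale (SE 0.12, adjusted p = 0.00105) and Parp14 by 0.97 (SE 0.20, adjusted p = 0.0285). Parp9 was 6.42, 6.48 and 6.58 in replicate 2, against 7.44, 7.37 and 7.79 in replicate 1 and 7.08, 7.38 and 7.46 in replicate 3. Its ligase partner Dtx3l differed by -0.27 and did not pass, nor did Trim21 (-0.22). Both guanylate binding proteins, GTPases that attack the vacuoles of intracellular pathogens, fell. Gbp2 was 6.05, 6.27 and 6.24 in replicate 2, against 7.31, 7.40 and 7.61 in replicate 1 and 7.17, 7.38 and 7.01 in replicate 3. It fell by 1.13 (adjusted p = 0.00241) and Gbp3 by 1.19 (SE 0.25, adjusted p = 0.0349). A second, dimmer Gbp2 probe set gave -0.81 and did not pass (limma adjusted p = 0.322 over 20975 probe sets). The Gbp3 call was lost without any 1 of 7 of the 9 uninfected arrays, and without the 3 arrays that lay apart its log2 difference was -0.90. The Parp14 call was lost without any 1 of the 9, with log2 differences of -1.01 to -0.90.

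Xaf1, an interferon-induced partner of the apoptosis inhibitor XIAP, had the smallest adjusted p of the list. It was 6.54, 6.93 and 7.09 in uninfected replicate 2, against 8.19, 8.35 and 8.58 in replicate 1 and 7.83, 7.97 and 8.36 in replicate 3 (log2 difference -1.36, SE 0.14, adjusted p = 0.000273). A second Xaf1 probe set gave -1.24 (adjusted p = 0.0362 over 20975 probe sets). Ifi35, an interferon-induced leucine zipper protein, was 8.16, 8.33 and 8.63 in replicate 2, against 8.97, 9.0 and 9.23 in replicate 1 and 9.04, 8.98 and 9.18 in replicate 3. Its groups did not overlap, but its difference of -0.70 had an adjusted p of 0.0973. Of the Isg15 pathway none passed: Usp18, the protease that removes Isg15 and damps the receptor, differed by -1.30 (SE 0.29, adjusted p = 0.0749), Herc6 by -0.23 and Trim25 by -0.14. Usp18 was 6.50, 6.54 and 7.20 in replicate 2, against 8.04, 8.01 and 8.63 in replicate 1 and 7.63, 7.78 and 8.19 in replicate 3, so that its groups did not overlap either.

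In 10 of the 13 genes that fell a RefSeq promoter was given, and 7 of these 10 held the response element core. Among the other 18 tested genes with a promoter, 7 held it. The 7 were the 6 printed above and Ifitm3, whose match does not lie wholly before the start. Irf7, Oasl2 and Xaf1 had no match within this window.

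**Figure D3:**
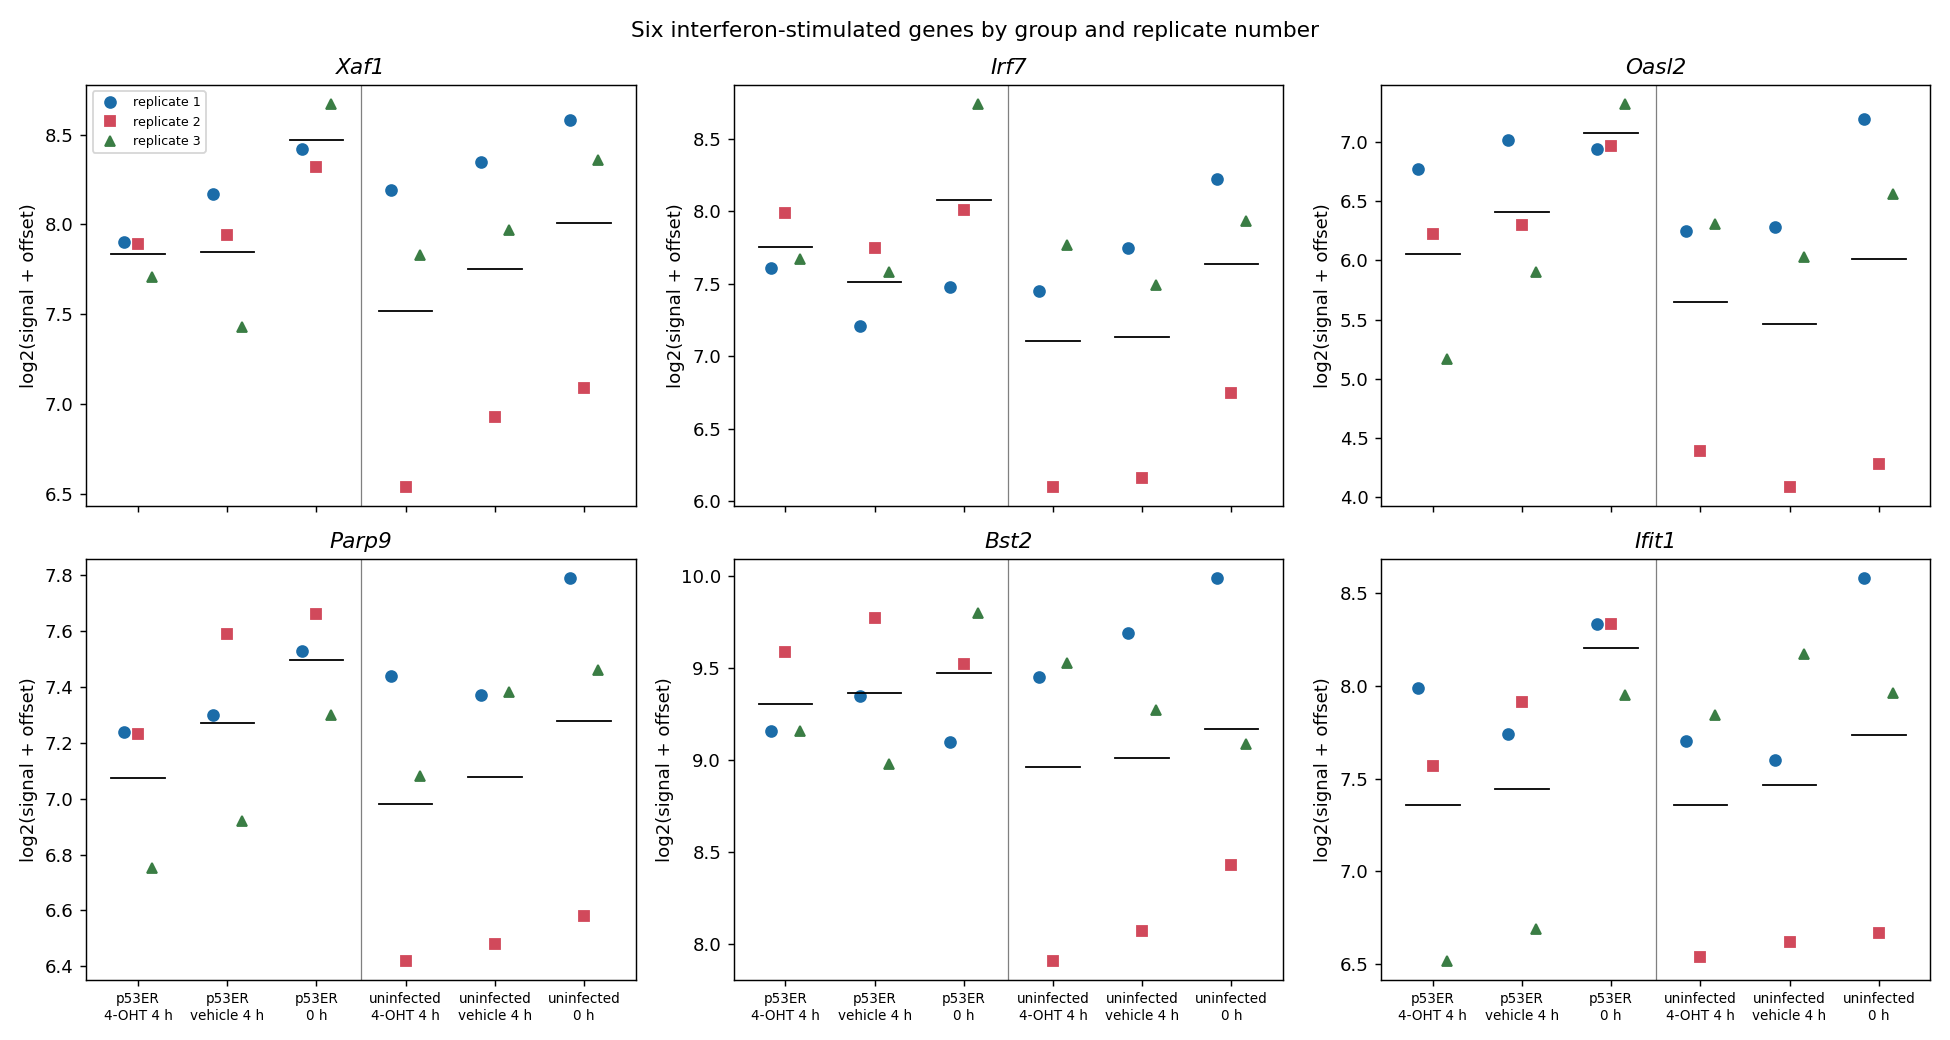
Log2 signal (y axis, its own range in each panel) of Xaf1, Irf7, Oasl2, Parp9, Bst2 and Ifit1 on each of the 18 arrays by group (x axis). Circles, squares and triangles are replicates 1, 2 and 3, and lines are means of 3 arrays. In the 3 uninfected groups the replicate 2 squares lie below every other uninfected point. In the p53ER groups they do not.

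In p53ER cells replicate 2 was not low. Against the mean of replicates 1 and 3, 0 of 34 genes passed (limma, 2.32% of all genes in either direction, 1.2% higher), 5 were higher at an unadjusted p under 0.05 (6.75% of all genes), and the median was 0.18. Without the 3 arrays that lay apart, 3 genes were higher. Xaf1 was 7.89, 7.94 and 8.32 in p53ER replicate 2, against 7.90, 8.17 and 8.42 in replicate 1 and 7.71, 7.43 and 8.67 in replicate 3. Ifit1 was 7.57, 7.91 and 8.33, against 7.99, 7.74 and 8.33 in replicate 1 and 6.52, 6.69 and 7.95 in replicate 3. In both genes replicate 2 lay among the other arrays.

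Oasl2 was 6.22, 6.30 and 6.97 in p53ER replicate 2, against 6.77, 7.02 and 6.94 in replicate 1 and 5.17, 5.90 and 7.32 in replicate 3. Irf7 was 7.99, 7.75 and 8.01, against 7.61, 7.21 and 7.48 in replicate 1 and 7.67, 7.58 and 8.74 in replicate 3. Parp9 was 7.23, 7.59 and 7.66, against 7.24, 7.30 and 7.53 in replicate 1 and 6.75, 6.92 and 7.30 in replicate 3. The order of the 3 replicates differed between these genes. Bst2 was 9.59, 9.77 and 9.52 in replicate 2, against 9.16, 9.35 and 9.10 in replicate 1 and 9.16, 8.98 and 9.80 in replicate 3. Rtp4 was 8.45, 8.62 and 9.38, against 8.18, 8.62 and 9.05 in replicate 1 and 7.58, 7.19 and 8.93 in replicate 3. Oas1a was 8.54, 8.73 and 8.52, against 8.67, 8.50 and 8.58 in replicate 1 and 7.75, 7.38 and 8.41 in replicate 3. Oas1a and Rtp4 were lowest in replicate 3 in each condition.

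The difference of the replicate 2 effect, uninfected minus p53ER, passed for 8 of 34 genes, all negative, against 0.54% of all genes. Oasl2 had -2.16 (SE 0.38, adjusted p = 0.0177), Rtp4 -1.77 and Parp9 -1.25 (SE 0.17, adjusted p = 0.00495), and Ifit1, Bst2, Irf7, Oas1a and Xaf1 lay between -1.76 and -1.36. The median over the 34 genes was -0.99, beside 0.02 over all genes. Without the p53ER vehicle replicate 2 array 1 gene passed, and without the 3 arrays that lay apart 14 did.

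**Figure D4:**
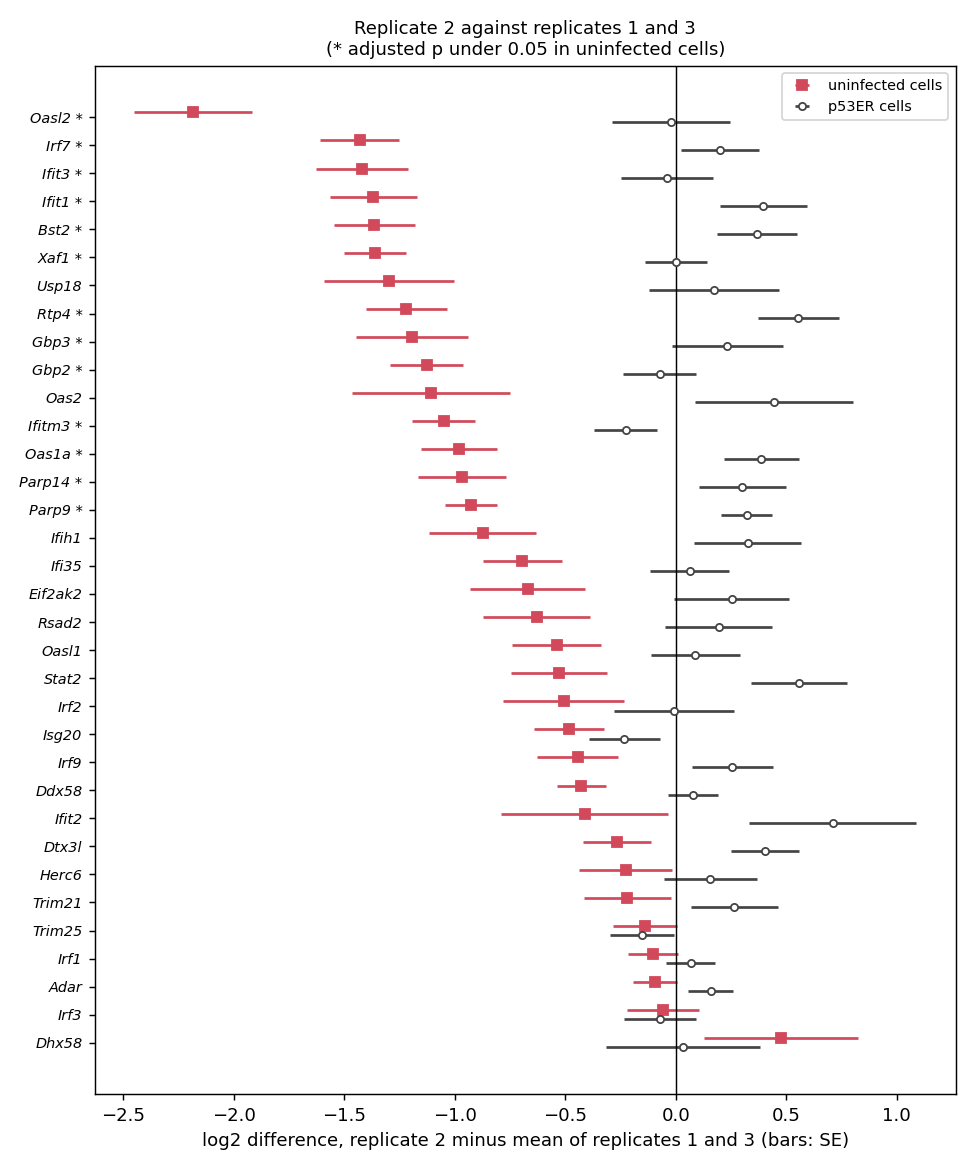
Replicate 2 minus the mean of replicates 1 and 3 (log2, x axis) for the 34 tested genes in uninfected cells (red squares) and p53ER cells (open circles). Each point rests on 3 arrays against 6, bars are standard errors of the limma model, and asterisks mark the 13 genes with an adjusted p under 0.05 in uninfected cells. The uninfected points reach -2.18 for Oasl2, where the p53ER point is near 0.

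The other replicates were compared in the same way. Uninfected replicate 1 was higher than the mean of 2 and 3 for 11 of 34 genes (8.31% of all genes in either direction, 3.57% higher), and uninfected replicate 3 was higher than the mean of 1 and 2 for 6 (13.5% of all genes in either direction, 6.54% higher). Both comparisons contain the low replicate 2 arrays on their other side. The 6 genes were Ifitm3, Isg20, Irf7, Ifit1, Oasl2 and Ifit3, and without either the 4-OHT or the vehicle array of replicate 3 none passed. Without the replicate 1 array the count was 2 (4-OHT) or 3 (vehicle), and without the vehicle replicate 2 array 2. The count of 11 became 1 without the 0 h, 3 without the 4-OHT and 4 without the vehicle array of replicate 1. It became 7 without the vehicle replicate 2 array, the 0 h replicate 3 array or the 4-OHT replicate 3 array.

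P53ER replicate 3 was compared in the same way. Against the mean of replicates 1 and 2, 7 of 34 genes were lower and 1 higher, beside 15% of all genes in either direction, 7.61% lower and 7.37% higher. Stat2 was 4.90 with 4-OHT, 4.94 with vehicle and 5.78 at 0 h in p53ER replicate 3, against 5.79, 6.25 and 6.58 in replicate 1 and 5.81, 6.15 and 6.83 in replicate 2, a log2 difference of -1.03 (SE 0.22, adjusted p = 0.00590). Ifit1 (-0.92), Rtp4 (-0.82), Oas1a (-0.75), Dtx3l (-0.74), Oasl1 (-0.69) and Parp9 (-0.44) were also lower, and Ifitm3 was higher (0.53). Dtx3l was 6.10, 5.62 and 6.38 in p53ER replicate 3, against 6.54, 6.64 and 7.04 in replicate 1 and 6.50, 6.56 and 7.31 in replicate 2. Oasl1 was 5.29, 5.93 and 6.38, against 6.29, 7.03 and 6.87 in replicate 1 and 6.54, 6.54 and 6.08 in replicate 2. In Stat2, Dtx3l, Oas1a and Rsad2 every replicate 3 array was below all the others, as in 7.43% of all genes, and Oasl1 overlapped. Without the p53ER 4-OHT replicate 3 array 3 genes passed, and without the vehicle array of that replicate 5. P53ER replicate 1 gave 0 of 34 genes (limma, 3.54% of all genes in either direction, 2.06% higher) and 7 at an unadjusted p under 0.05, near the 16.7% of all genes. It gave 3 without the 3 arrays that lay apart, 2 without the p53ER 0 h replicate 3 array and 1 without the 4-OHT replicate 2 array.

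Over both cell types, replicate 3 against the mean of 1 and 2 gave 2 higher genes and 2 lower ones, beside 21.2% of all genes. Isg20 was higher by 0.51 (adjusted p = 0.00487) and Ifitm3 by 0.57 (adjusted p = 0.0185). Stat2 fell by 0.67 (adjusted p = 0.0272) and Dtx3l by 0.45 (adjusted p = 0.0302). The Isg20 levels in replicate 3 were 7.55, 7.34 and 8.06 in p53ER cells and 7.56, 7.70 and 7.75 in uninfected cells, with 4-OHT, with vehicle and at 0 h. In replicates 1 and 2 they ran between 6.60 and 7.46, so that 5 of the 6 replicate 3 arrays were above all 12 others. Without the 4-OHT or 0 h replicate 3 array of p53ER cells, or the 4-OHT one of uninfected cells, 1 gene passed, and without the p53ER vehicle replicate 3 array 2 did.

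After 4 h in culture with either 4-OHT or vehicle, most genes of the list were slightly below their 0 h level, and none passed in the model without replicate number. The fits with replicate number, in which some genes passed over both cell types, are described in the closing section. Averaged over both cell types and both treatments, 4 h against 0 h gave 0 of 34 genes past the adjusted threshold in limma (0.0183% of all genes), 7 at an unadjusted p under 0.05, all lower (5.78% of all genes were lower), and a median of -0.27, beside -0.04 over all genes. The difference was negative for 33 of 34 genes, beside 6397 of 10916 genes tested. Rsad2 was the exception (0.35, SE 0.23). Its dimmer probe sets gave 0.12 and -0.07.

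Rtp4 had the lowest value, -0.83 (SE 0.29, adjusted p = 0.430). In p53ER cells it was 8.18, 8.45 and 7.58 with 4-OHT and 8.62, 8.62 and 7.19 with vehicle, against 9.05, 9.38 and 8.93 at 0 h. In uninfected cells it was 8.25, 7.49 and 8.30 with 4-OHT and 8.44, 7.11 and 8.53 with vehicle, against 9.31, 7.67 and 9.03 at 0 h. Within each replicate number the 4 h arrays were below the 0 h array. Trim25 differed by -0.54 (SE 0.11, adjusted p = 0.105) Irf9 by -0.59 (SE 0.17, adjusted p = 0.341) and Oasl2, second after Rtp4 in size, by -0.65 (SE 0.45).

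In each of the 6 pairs of cell type and replicate number, the median of the list was below 0, from -0.49 in p53ER replicate 3 to -0.13 in p53ER replicate 1, with 25 to 32 of 34 genes lower. The mean of the 4 h arrays was below the 0 h array in 6 of 6 pairs for 13 of 34 genes, against 5.19% of all genes. The 13 were Adar, Dtx3l, Irf1, Irf3, Irf7, Irf9, Oasl2, Parp9, Parp14, Rtp4, Trim25, Usp18 and Xaf1. The 4 h arrays of a pair share its 0 h array, and 3 of the 6 pairs hold one of the arrays that lay apart.

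**Figure D5:**
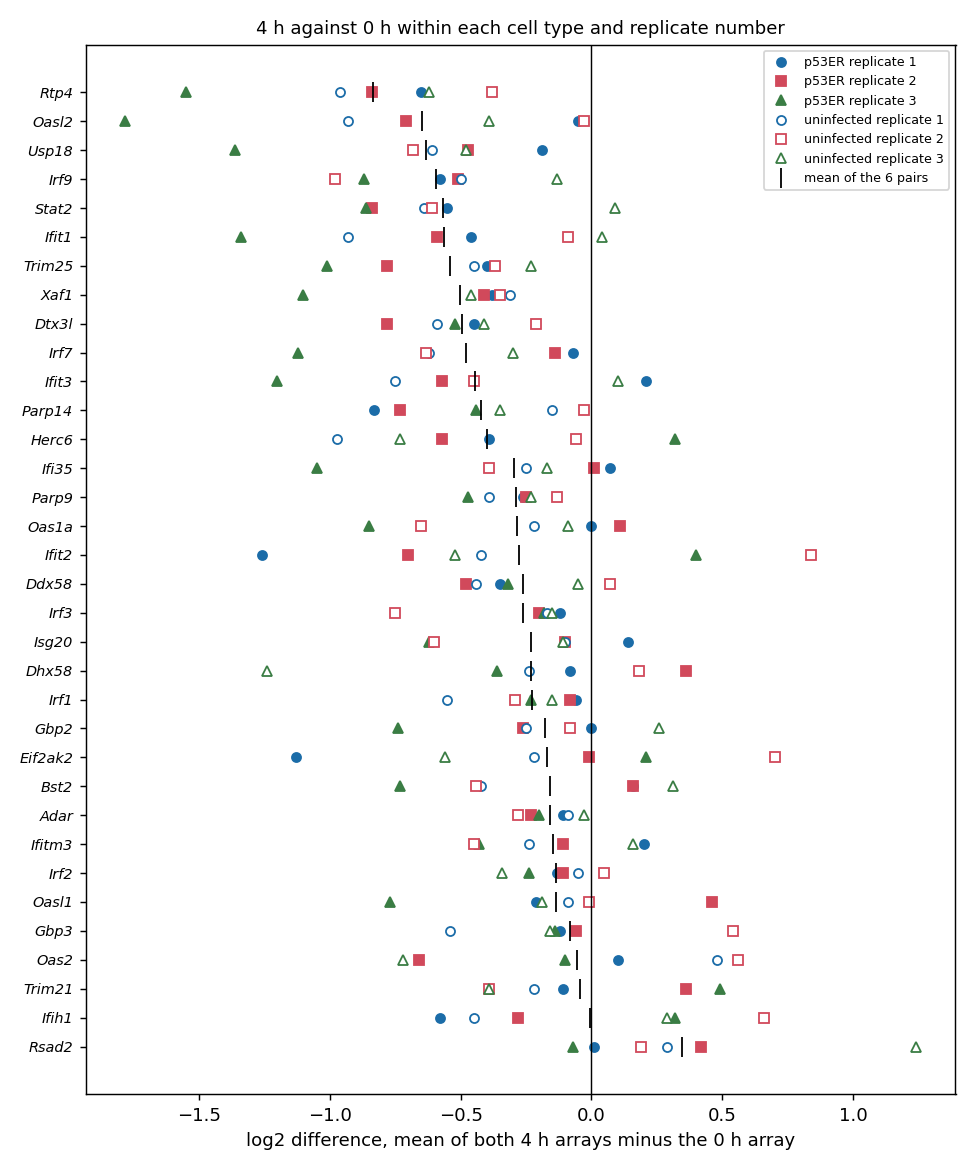
Mean of the 4-OHT and vehicle arrays at 4 h minus the 0 h array (log2, x axis) for the 34 tested genes, in each of the 6 pairs of cell type and replicate number. Filled symbols are p53ER cells, open symbols are uninfected cells, and bars are the mean of 6 pairs. The points lie left of 0 in all 6 pairs for 13 genes, and Rsad2 has its mean at 0.35.

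The 4-OHT and vehicle comparisons with 0 h share the 0 h arrays, so their values are given side by side. In p53ER cells the median was -0.30 with 4-OHT and -0.35 with vehicle, with 31 of 34 genes negative in each. In uninfected cells it was -0.28 with 4-OHT (31 of 34 negative) and -0.25 with vehicle (29 of 34). In this fit, which has no replicate number, the uninfected medians shifted when 1 array was left out. Without the 0 h replicate 2 array they were -0.51 with 4-OHT and -0.50 with vehicle, and without the 0 h replicate 1 array -0.10 and -0.02. Without the replicate 2 array of the treated group they were -0.02 with 4-OHT and 0.04 with vehicle. Leaving out a replicate 2 array takes a low array from 1 side of the comparison only. Within replicates 1, 2 and 3, with both treatments averaged, the uninfected medians were -0.40, -0.24 and -0.18. None of these 4 comparisons passed for any of the 34 genes in limma (0.0183% of all genes in p53ER cells with 4-OHT, 0% in the other 3), and 3, 4, 0 and 2 genes were under an unadjusted p of 0.05, beside 4.14%, 3.05%, 4.96% and 5.64% of all genes.

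Trim25 was 7.29, 7.20 and 7.26 in p53ER cells with 4-OHT, against 8.03, 8.07 and 8.32 at 0 h (log2 change -0.89, SE 0.18, adjusted p = 0.123). For these 2 groups the replicate numbers pair the arrays, and with the number as a block the adjusted p of Trim25 was 0.0368, the one gene of 34 that passed (0.174% of all genes). A dimmer Trim25 probe set differed little over the 4 h comparison as a whole (-0.05), where the brightest gave -0.54 and the other one -0.42. The effect of 4 h differed between p53ER and uninfected cells for 0 of 34 genes (limma, 0% of all genes), none at an unadjusted p under 0.05.

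P53ER cells and uninfected cells did not differ past the test in any gene of the list. Averaged over the 3 conditions, 0 of 34 genes passed in limma (0.0458% of all genes), 2 were higher in p53ER cells at an unadjusted p under 0.05 (3.46% of all genes), and the median was 0.14. With 4-OHT 0 of 34 passed (0.0733% of all genes, 1 unadjusted), with vehicle 0 (0.00916%, none unadjusted) and at 0 h 0 (0%, none unadjusted), with medians of 0.09, 0.13 and 0.25. Without the uninfected replicate 2 array of the condition these medians were -0.11, -0.10 and 0.01, and without the uninfected replicate 1 array 0.22, 0.23 and 0.50. Irf3 (0.25, SE 0.11) and Ifitm3 (0.49, SE 0.22) were the 2 genes. Oasl2 had the largest mean difference, 0.80 (SE 0.42, adjusted p = 0.853), and Usp18 the next, 0.52 (SE 0.29). Usp18 was 7.91, 7.99 and 8.22 in p53ER cells with 4-OHT, 8.47, 8.20 and 6.68 with vehicle and 8.38, 8.56 and 8.81 at 0 h. Its uninfected values, given above, overlapped these.

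Split by replicate number, the cell type difference was not the same. In replicate 2, p53ER minus uninfected had medians of 0.61 with 4-OHT, 0.90 with vehicle and 0.99 at 0 h, with 30, 31 and 29 of 34 genes higher in p53ER cells. In replicate 1 the medians were -0.06, 0.09 and -0.16, and in replicate 3 they were -0.21, -0.27 and 0.05. Replicate 2 was the one number with a positive median in all 3 conditions.

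Over the 18 arrays the genes of the list varied together. The mean pairwise Pearson correlation of the 34 genes was 0.417, beside 0.00449 over all tested genes. It was 0.264 over the 9 p53ER arrays and 0.557 over the 9 uninfected arrays. Parp9 (r = 0.952), Xaf1 (0.946) and Rtp4 (0.939) followed the mean of the other genes most closely, and Dhx58 (-0.06), Trim21 (0.207) and Rsad2 (0.215) least. The arrays share conditions and replicate numbers, so these values describe these 18 arrays.

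The rest of the pathway moved in part with the list. Of 57 further genes of interferon production, signaling and response, 41 were tested, and 6 were lower in uninfected replicate 2 and none higher, beside 0.669% of all genes lower and 0.476% higher. All 6 belong to the 23 further response genes: Zbp1, a sensor of Z-form nucleic acid (-2.72, adjusted p = 0.00174), the chemokines Ccl5 (-1.97, adjusted p = 0.000130) and Cxcl10 (-0.96), Phf11d (-1.22), Lgals3bp (-0.90) and the immunoproteasome subunit Psmb8 (-0.85). Zbp1 was 2.93, 3.20 and 2.77 in uninfected replicate 2, against 5.79, 5.95 and 6.17 in replicate 1 and 5.70, 5.11 and 5.41 in replicate 3. These replicate 2 levels lie below 4.74, the dimmest mean level tested, so the size of the difference is uncertain. On the p53ER arrays Zbp1 ran from 3.17 (4-OHT, replicate 1) to 6.41 (0 h, replicate 3). Cxcl10 was 7.22, 7.22 and 6.73, against 7.19, 7.61 and 7.41 in replicate 1 and 8.56, 8.99 and 8.30 in replicate 3, so that replicate 3 stood highest and replicate 2 lay above replicate 1 with 4-OHT.

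Of the interferons and their receptors, 0 of 5 tested genes passed in uninfected replicate 2 (median -0.09). Of the kinases, STATs and their brakes 0 of 8 passed (median -0.14), and of the sensing genes upstream of interferon 0 of 5 (median -0.01). At an unadjusted p under 0.05 these counts were 1, 1 and 0 in limma. Ifnb1, interferon beta itself, was below the brightness limit, at 2.77 to 5.15 over the 18 arrays. Ccl5 also differed by replicate 3, where it was 10.06 to 11.18, against 6.52 to 8.26 in replicates 1 and 2. Its low replicate 2 was not particular to uninfected cells. In p53ER cells it was 7.71, 7.24 and 7.48 in replicate 2, against 8.16, 8.26 and 8.02 in replicate 1 and 10.63, 10.48 and 11.18 in replicate 3.

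Markers of other cell types were read beside the low uninfected replicate 2. The summed signal of the 9 blood and immune markers on the array was 255 to 366 in uninfected replicate 2, against 295 to 358 in uninfected replicates 1 and 3. The sum of 8 mesenchymal markers was 50015 to 64678, against 39405 to 49136, and of these 8 the intermediate filament gene Vim passed (0.49, adjusted p = 0.0289). The sums of 6 epithelial markers were 218 to 271 against 156 to 271, and of 4 endothelial markers 81.2 to 137 against 56.9 to 140. The part of these differences in the interferon-stimulated genes was not tested. The trimmed mean brightness of the 3 replicate 2 arrays was 88.0 with 4-OHT, 82.1 with vehicle and 58.1 at 0 h before scaling, within the range of the others.

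In p53ER replicate 3 the mesenchymal genes Col3a1 (-1.40), Pdgfrb (-1.21), Thy1 (-0.83) and Col1a1 (-0.66) were lower and the monocyte gene Cd14 (0.78) higher, each past the adjusted threshold. The other 4 tested mesenchymal markers (-0.19 to 0.09) and the other 4 tested blood and immune markers (-0.62 to 0.74) did not pass. The summed mesenchymal signal was 44442 to 50377 in p53ER replicate 3, against 41152 to 58340 in p53ER replicates 1 and 2, and the blood and immune sum 310 to 402, against 275 to 338. Their part in the lower Stat2, Ifit1 and Rtp4 there was not tested.

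The 0 h array of uninfected replicate 2 is one of the 3 that lay apart, whereas its 4-OHT and vehicle arrays lay with the rest on the first component. Without the 3 arrays, uninfected replicate 2 was lower for 15 of 34 genes, among them 12 of the 13 genes above.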

How the data were processed

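Total RNA of 18 samples was hybridised to Affymetrix Mouse430_2 arrays. The deposited values are MAS5 signal intensities on a linear scale, made by the authors with MAS5 per the submitters' processing notes; its settings and the array scaling are not given in the sources used here. The values cover 45101 probe sets, of which 34958 name 1 gene, 932 several and 9211 are not listed in the annotation.

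Here the arrays were brought to 1 brightness by their 2% trimmed means (82.7 after scaling), 5% of that value (4.13) was added, and log2 was taken. Each gene was read by its brightest probe set on average, and the upper 60% of genes (10916) were tested with limma 3.58.1 in R 4.3.3 (trend and robust prior), with Benjamini-Hochberg adjustment over all tested genes and a threshold of 0.05. Planned contrasts used 6 group means with no block (12 residual degrees of freedom). Replicate numbers come from the titles. Replicate 3 over both cell types was taken from a fit with the number as an additive term (10 degrees of freedom), and contrasts by number within a cell type from a fit with it inside each cell type (8 degrees of freedom), which was added after the data had been seen. The number of arrays limits the precision: an exact test of 3 arrays against 3 cannot go below p = 0.1.

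Deviations from the group means correlated over 0.1 in every same-numbered pair for p53ER 4-OHT with vehicle (0.21 to 0.45), p53ER 4-OHT with 0 h (0.27 to 0.47) and uninfected 4-OHT with vehicle (0.31 to 0.62), and there the numbers were taken to pair the arrays. Correlations were also over 0.1 in every pair for p53ER 4-OHT with uninfected 4-OHT (0.17 to 0.47). The values printed for that comparison are those of the fit without a block. The standard errors and p-values printed for 4-OHT against vehicle are still those of the fit without a block. The block changed no call of the list for 4-OHT against vehicle or for p53ER against uninfected cells with 4-OHT. For p53ER 4-OHT against 0 h it added Trim25.

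The members and the lists of other pathway genes and markers were chosen with earlier results of these data known. All 39 members may be named. Values on the arrays are given for members past the threshold, up to 8 in a comparison by smallest adjusted p, or else for those with the largest change, and for the brightest member of each role. Other pathway genes are named where past the threshold. The fits were tested on simulated data. Alternatives were other scaling, offsets, filters, probe sets, variance priors and sample sets, replicate blocks, each array left out, and, added later, the 3 arrays that lay apart left out. Pathway genes missing from the annotation were not analysed here.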

Additional observations from a re-analysis of the deposited data

Results flagged for a closer look

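For 8 genes the effect of replicate 2 differed between uninfected and p53ER cells in limma's test of that difference, which is why they are listed here. Uninfected minus p53ER, the log2 differences were -2.16 for Oasl2, -1.77 for Rtp4, -1.76 for Ifit1, -1.73 for Bst2, -1.63 for Irf7, -1.37 for Oas1a, -1.36 for Xaf1 and -1.25 for Parp9, with adjusted p from 0.00495 to 0.0184. The comparison was chosen after the values had been seen. The cause was not tested.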

How the results depend on the processing

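Of 425 recomputed counts of genes past the threshold, 390 stayed within 1.5 times the reported count and 35 did not. Most planned comparisons had a count of 0, and a recomputed 0 was scored as unchanged, so these figures say little about counts above 0. All 404 recomputed medians moved by less than the median residual SD of single genes. That SD was 0.51 without replicate number and 0.29 with it within each cell type. It is larger than most of the planned medians, so the limit was wide. No gene past the threshold changed direction, but medians near 0 changed sign: leaving out 1 array, they ran from -0.22 to 0.11 for p53ER 4-OHT against vehicle, -0.37 to 0.23 for uninfected 4-OHT against vehicle, -0.26 to 0.31 for the difference of these, -0.39 to 0.16 for the difference of the 4 h effect, -0.50 to 0.04 for uninfected vehicle against 0 h, -0.11 to 0.22 and -0.10 to 0.30 for p53ER against uninfected with 4-OHT and with vehicle, and -0.06 to 0.07 for replicate 3. With replicate number as a block, p53ER 4-OHT against 0 h gave 1 gene (Trim25), as it did with the block within each cell type and when the 3 arrays that lay apart were also left out. For 4 h against 0 h over both cell types the numbers do not pair all arrays (lowest correlation -0.08 within a cell type and -0.34 between cell types). The count of 0 became 1 with the replicate block (Trim25, 65 of all genes) and 5 with the block within each cell type (Rtp4, Trim25, Xaf1, Irf9 and Dtx3l, 113 of all genes), also 5 without the 3 arrays that lay apart. The replicate block changed no other call of a planned comparison. Without those 3 arrays, replicate 3 over both cell types gave 2 genes, uninfected replicate 3 gave 13, p53ER replicates 2 and 1 gave 3 each and the difference of the replicate 2 effect 14. With only the groups compared, uninfected replicate 3 gave 10 and p53ER replicate 3 gave 5, and without the trended robust prior uninfected replicate 3 gave 3. Leaving out each array in turn, the counts ran from 0 to 1 for 4 h against 0 h (1 without p53ER vehicle replicate 1), from 1 to 4 for replicate 3, from 0 to 7 for uninfected replicate 3, from 1 to 9 for uninfected replicate 1, from 9 to 12 for uninfected replicate 2, from 3 to 9 for p53ER replicate 3, from 0 to 2 for p53ER replicate 1 and from 1 to 12 for the difference. Fits on only the groups compared were not run where a comparison uses all groups, and medians were not recomputed for the variance prior, which does not change them. The causes of these moves were not tested. With 3 arrays a group and signals near background for Dhx58, Oas2 and Irf2, small changes of these genes were not detectable.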
